A study of Homo sapiens with 12 samples.

Results

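IDO1, WARS and KYNU are 3 of the 19293 genes in a table of RNA counts from HT1080 cells, a human fibrosarcoma line, and were taken from it by their symbols. They were followed across 12 libraries in 4 groups of 3. All 4 groups were the same line, and the labels name no engineered allele. The combination group received IFNγ (interferon gamma, 10 ng/ml) and radiation (20 Gy), the IFNγ group the cytokine alone, the radiation group 20 Gy alone, and the untreated group neither, and treated cells were harvested after 24 h. The design asks how the cytokine, radiation and their combination change the cells' RNA. The labels number the libraries of a group 1 to 3 and do not say whether each was its own culture, so the error given here is that among libraries and could be purely technical.

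Tryptophan, an essential amino acid, is drawn on by both protein synthesis and breakdown. IDO1 encodes indoleamine 2,3-dioxygenase, which opens the ring of tryptophan in the first and rate-limiting step of the kynurenine pathway, and it is a classic gene of the IFNγ response: cells that make it deplete tryptophan around them and release kynurenine, which restrains T cells and the growth of some intracellular microbes. WARS encodes the cytosolic tryptophanyl-tRNA synthetase, which loads tryptophan onto its tRNA, and it is also induced by IFNγ. KYNU encodes kynureninase, which cleaves kynurenine and 3-hydroxykynurenine further down the same pathway, on the branch that leads to NAD.

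Sequence just upstream of the transcription start is shown for WARS and KYNU because IFNγ acts on genes through elements in such regions. Transcription factors that the IFNγ receptor activates bind GAS elements (searched as TTCNNNGAA), and interferon regulatory factors such as IRF1 bind ISRE elements (core searched as GAAA, any 2 bases and GAAA again). WARS (listed there as WARS1) and KYNU matched the RefSeq promoter table (GRCh38.p14), so 2 of the 3 genes had an entry; IDO1 did not. WARS has 2 starts in it, the second 980 bases downstream of the first, and KYNU has 1. Each sequence below is the 250 bases before the start, 5′ to 3′ on the gene's strand, with every match to either motif on either strand in capitals. The first WARS window is chr14:100376328-100376577 on the minus strand, the second is chr14:100375348-100375597 on the minus strand, and the KYNU window is chr2:142877414-142877663 on the plus strand.
WARS first start: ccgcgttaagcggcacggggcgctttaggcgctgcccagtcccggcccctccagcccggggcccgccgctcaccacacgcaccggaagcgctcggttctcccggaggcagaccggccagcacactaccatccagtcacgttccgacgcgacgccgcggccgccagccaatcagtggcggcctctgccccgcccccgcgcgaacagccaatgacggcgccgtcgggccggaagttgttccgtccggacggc
WARS second start: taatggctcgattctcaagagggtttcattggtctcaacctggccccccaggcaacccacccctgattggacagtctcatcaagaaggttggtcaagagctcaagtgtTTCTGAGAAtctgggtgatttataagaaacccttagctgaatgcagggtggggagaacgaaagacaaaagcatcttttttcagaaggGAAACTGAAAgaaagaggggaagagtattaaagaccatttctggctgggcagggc
KYNU start: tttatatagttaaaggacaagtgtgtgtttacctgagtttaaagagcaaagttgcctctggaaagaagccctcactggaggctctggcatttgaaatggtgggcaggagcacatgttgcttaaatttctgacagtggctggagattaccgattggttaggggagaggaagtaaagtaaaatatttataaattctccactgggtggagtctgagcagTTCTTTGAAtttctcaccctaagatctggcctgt

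The window before the second WARS start held a GAS match, TTCTGAGAA, 142 to 134 bases before the start and an ISRE core match, GAAACTGAAA, 55 to 46 bases before it. The window before the first WARS start, 73.6% G and C, held neither, and the KYNU window held 1 GAS match, TTCTTTGAA, 34 to 26 bases before the start. Over the table's 35116 windows of this length, 6.57% held a GAS match and 3.02% an ISRE core match, and no match in these 3 windows overlapped another. A match describes the letters only. Counts were made per gene, so they do not tell which WARS start was used.

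Total counts per library ran between 9675126 and 11010656, and levels are given as CPM, counts per 1000000 of the library's total after TMM scaling, which adjusts each total to the bulk of its genes. Of all genes, 12160 had enough counts to be tested, and these include IDO1 and WARS but not KYNU. A gene was called higher or lower at a Benjamini-Hochberg adjusted p under 0.05 from edgeR's quasi-likelihood test, adjusted over all tested genes, and fold changes are on the log2 scale with their standard error (SE). All 8 listed mesenchymal markers had counts in each group except THY1, which was at 0 in the IFNγ group. In untreated cells VIM averaged 5187 CPM, FN1 1632, SPARC 1009 and LGALS1 596. COL1A1, COL1A2, S100A4 and THY1 averaged only 6.12, 1.6, 1.57 and 0.065 CPM there. The summed level of all 8 was 7977 to 7989 CPM in combination libraries, 7854 to 7943 in IFNγ libraries, 8081 to 8393 in irradiated libraries and 8248 to 8585 in untreated libraries. Summed epithelial and endothelial markers were at most 1.19 CPM in any library.

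Irradiated replicate 2 stood apart from the other irradiated libraries in genes that touch the results below. It held 59 counts of GBP5, a guanylate-binding protein of the interferon response, against 10 and 3 in replicates 1 and 3, and 23 counts of PTPRC, the pan-leukocyte antigen CD45, against 2 and 1. LYZ, CD14 and ITGAM mark myeloid cells. Its counts of them were 14, 7 and 7, against 4, 0 and 1 in replicate 1 and 4, 2 and 2 in replicate 3. The other listed immune markers did not follow. CSF1R, also a myeloid marker, was lowest in replicate 2, with 42 counts against 58 and 49 in replicates 1 and 3. CD68 had 1660 against 1655 and 1688, NKG7 had 0 against 1 and 0, and CD3E had none. Over the list of 8 immune markers, 6 had a count in the combination group (CD3E and NKG7 at 0), 7 in the IFNγ group (CD14 at 0), 7 in the radiation group (CD3E at 0) and 6 in the untreated group (CD14 and CD3E at 0). Their summed level, most of it CD68, a lysosomal protein made by many cells, was 191 to 203 CPM in combination libraries, 140 to 142 in IFNγ libraries, 170 to 176 in irradiated libraries and 120 to 128 in untreated libraries. Values of IDO1, WARS and KYNU that use the radiation group are also given without it, where the remaining counts allowed one.

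**Figure D1:**
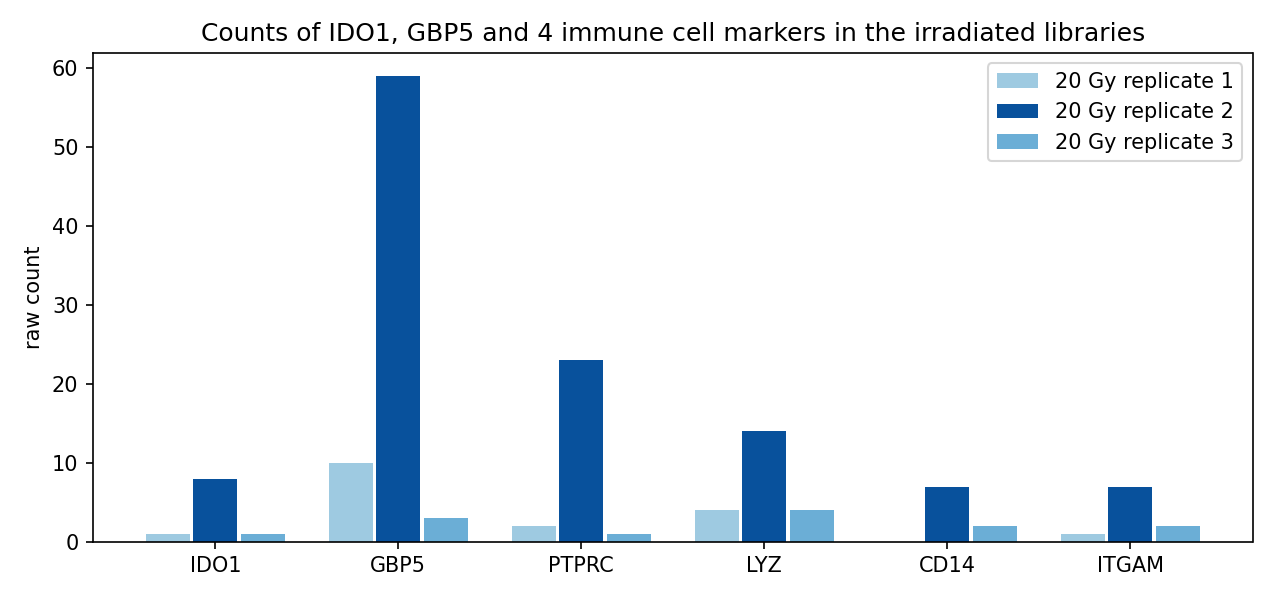
Raw counts (vertical axis) of IDO1, GBP5 and 4 immune cell markers in the 3 libraries irradiated without IFNγ, 1 bar per library. Replicate 2 held 8 counts of IDO1 against 1 and 1, and 59 of GBP5 against 10 and 3. Of the listed immune markers, only those highest in replicate 2 are shown.

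IDO1 RNA appeared with IFNγ. IDO1 (ENSG00000131203.12) had 2424, 1648 and 1499 counts in the 3 IFNγ libraries, or 240, 154 and 150 CPM (mean 181 ± 50.6, SD, n = 3), against 0, 0 and 0 counts in the untreated libraries. Every IFNγ library was thus far above every untreated library, and replicate 1 was the highest of its group. Set against a floor of 3 counts over the untreated group, IDO1 was 1878-fold higher in IFNγ cells (edgeR adjusted p = 0.00013). The counting interval of this ratio ran from 1527 upward. IDO1 made up 0.0176% of the counts in IFNγ cells. In this comparison 29.1% of tested genes were called, 15% higher and 14.1% lower; with library totals in place of TMM scaling, 31.1% of the calls were higher, against 51.6% with TMM.

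Irradiated cells given IFNγ also held IDO1 RNA in quantity. The combination libraries had 1228, 1327 and 2134 counts, or 120, 125 and 196 CPM (mean 147 ± 42.3, SD, n = 3), with replicate 3 the highest. Against the same floor, IDO1 was 1537-fold higher in combination cells than in untreated cells (95% counting interval from 1249 upward, edgeR adjusted p = 6.4e-05). In this comparison 62.1% of genes were called, 30.9% higher and 31.2% lower. Between the combination and IFNγ groups the IDO1 libraries overlapped, and the log2 fold change of -0.30 ± 0.263 (SE; 95% interval -0.93 to 0.34) was not called (edgeR adjusted p = 0.38; 60.7% of genes called, 30.3% higher and 30.4% lower). The interval covers changes of either sign, so 3 libraries a group did not settle whether IDO1 differed.

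Radiation without the cytokine left IDO1 close to absent. The irradiated libraries held 1, 8 and 1 counts of IDO1, against 0, 0 and 0 in untreated libraries. The change was not called by edgeR (adjusted p = 0.64; 56.1% of genes called, 27.9% higher and 28.2% lower), although DESeq2 gave an adjusted p of 0.004. IDO1 had enough counts to be tested only through the groups given IFNγ. In a fit of the irradiated and untreated groups alone it was not tested. The 8 counts were in replicate 2, the library that also held more reads of GBP5, PTPRC, LYZ, CD14 and ITGAM. Their exact 95% Poisson interval is 3.45 to 15.8, and it covers counting error only, as do all counting intervals given here. The 10 irradiated counts set against the floor gave a 3.44-fold higher level (95% counting interval from 2.31 upward). Without replicate 2 only 2 counts remained, which is under the floor, and no fold can be given. The part of that library's other reads in its IDO1 counts was not tested.

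Within irradiated cells, IFNγ again separated the groups completely. IDO1 had 120, 125 and 196 CPM in combination libraries, against 0.101, 0.803 and 0.0972 CPM in irradiated libraries. The ratio of summed levels was 447 (95% counting interval 243 to 932; edgeR adjusted p = 0.00024; 26.9% of genes called, 14.5% higher and 12.4% lower). With library totals, 38% of the calls in this comparison were higher, against 53.9% with TMM. Without irradiated replicate 2 the ratio was 1496 (414 to 12357), since 2 counts then stood for the radiation group. In bulk RNA such as this, fewer cells making a transcript and less RNA per cell cannot be told apart.

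**Figure D2:**
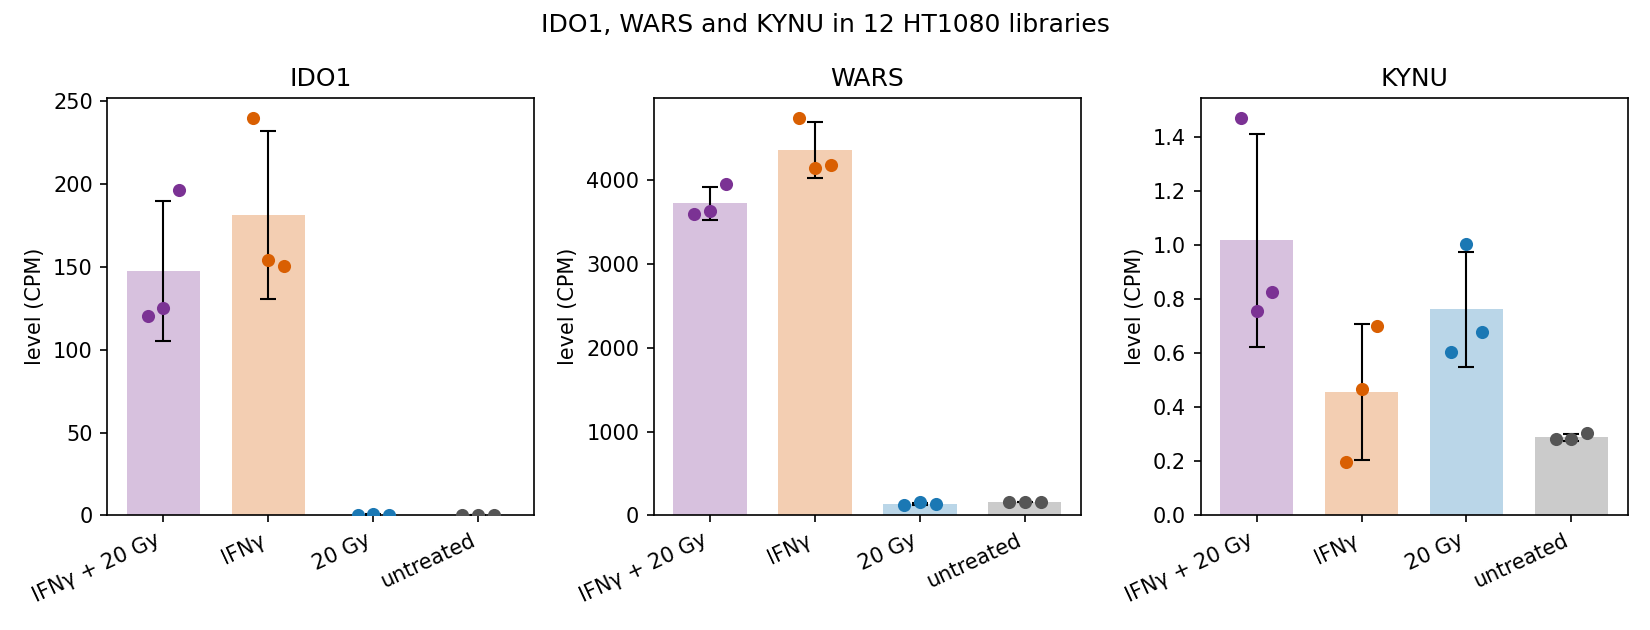
Levels in CPM (vertical axes, linear from 0) of IDO1, WARS and KYNU in the combination, IFNγ, radiation and untreated groups, with 1 point per library and the group mean and SD. IDO1 and WARS separated into libraries with and without IFNγ, whereas KYNU stayed under 1.5 CPM throughout.

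WARS was present in every library and rose with IFNγ. WARS (ENSG00000140105.17) stood at 4739, 4146 and 4176 CPM in IFNγ libraries (mean 4354 ± 334, SD, n = 3), against 163, 159 and 161 CPM in untreated libraries (161 ± 2.1, SD, n = 3). The groups did not overlap, and IFNγ replicate 1 was again the highest. The log2 fold change was 4.76 ± 0.0822 (SE; 95% interval 4.57 to 4.95; edgeR adjusted p = 1.4e-10), a 27-fold higher level. WARS counts made up 0.422% of all counts in IFNγ cells and 0.0163% in untreated cells.

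With both treatments WARS stood at 3590, 3627 and 3949 CPM (mean 3722 ± 197, SD, n = 3), against 163, 159 and 161 CPM in untreated cells. This was a log2 fold change of 4.53 ± 0.0823 (SE; edgeR adjusted p = 5.8e-11), or 23.2-fold higher, with no overlap. The combination libraries were all below the 3 IFNγ libraries, of which the lowest had 4146 CPM. WARS was thus lower in combination cells than in IFNγ cells, by a log2 fold change of -0.23 ± 0.069 (SE; 95% interval -0.38 to -0.07; edgeR adjusted p = 0.0195), in a comparison where 30.4% of all genes were called lower. The call was lost in a fit of those groups alone (edgeR adjusted p = 0.051), without combination replicate 1 (0.064) and without combination replicate 2 (0.063), and the difference shrank to -0.15 without IFNγ replicate 1 (0.043).

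Radiation alone moved WARS little. Irradiated libraries had 127, 155 and 132 CPM (mean 138 ± 15, SD, n = 3), against 163, 159 and 161 CPM in untreated libraries, all lower, with replicate 2 nearest to the untreated libraries. The log2 fold change of -0.23 ± 0.0959 (SE; 95% interval -0.45 to -0.01) was not called (edgeR adjusted p = 0.074). It was called by DESeq2 (adjusted p = 0.025), in an edgeR fit of these groups alone (0.00037) and without irradiated replicate 2, where it was -0.32 (edgeR adjusted p = 0.0033).

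The IFNγ change of WARS was of similar size with and without radiation. In irradiated cells WARS stood at 3590, 3627 and 3949 CPM with IFNγ, against 127, 155 and 132 CPM without it, a log2 fold change of 4.76 ± 0.0849 (SE; edgeR adjusted p = 1.8e-10), or 27.1-fold. Without irradiated replicate 2 the ratio was 28.9. The test of the difference between this change and that in unirradiated cells (the interaction) gave 0.00071 ± 0.118 on the log2 scale (SE; 95% interval -0.27 to 0.27; edgeR adjusted p = 0.999). It was 0.09 without irradiated replicate 2 (edgeR adjusted p = 0.74). Of all tested genes, 2.38% had a called interaction (1.38% positive and 0.995% negative), and 58.1% of those were positive with TMM scaling against 69.4% with library totals. For IDO1 the interaction was not called (edgeR adjusted p = 0.82), and its size cannot be estimated because the untreated group had no counts.

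IDO1 and WARS varied together within the cytokine groups. Both were highest in IFNγ replicate 1 and in combination replicate 3 of their groups. So was the summed level of 68 other genes at least 16-fold higher in IFNγ than in untreated cells, which was 6323, 6612 and 7730 CPM in combination libraries, 7909, 6828 and 6690 in IFNγ libraries, 260, 293 and 247 in irradiated libraries and 162, 174 and 157 in untreated libraries. IRF1, the interferon regulatory factor that acts early in the response, had 167, 165 and 200 CPM in the combination libraries and 220.5, 183 and 178 CPM in the IFNγ libraries, again highest in combination replicate 3 and IFNγ replicate 1. In irradiated replicate 2 the amount of WARS above the mean of the other irradiated libraries was 0.587% of its IFNγ group mean, and the same share was 0.388% for IDO1, 0.583% for GBP5 and 0.555% for the 68 genes. GBP5 and IRF1 are themselves among the 68 genes, so their values are not separate from that sum. What these small shares come from was not tested.

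The genes whose log2 CPM followed IDO1 most closely over the 12 libraries, among 10488 well-measured genes, were BTN3A1 (Pearson r = 0.998), IRF1 (0.997), IFNAR2, PARP9 and IL18BP (each 0.996). For WARS they were CIITA and DDX60 (r = 0.999 for both), HLA-F, BST2 and AIM2. The points are 12 libraries that fall into those with and without IFNγ, so these values describe mostly that split. For KYNU, on log2(CPM + 0.2), the closest of 10489 genes reached only 0.931 (PTGR1), followed by TMF1, CLASP1, TRIM23 and TMEM14A, the last at 0.903. These are the highest of 10489 values for a gene with 2 to 15 counts a library, and they were not tested.

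KYNU RNA was near the detection limit. KYNU (ENSG00000115919.14) had 15, 8 and 9 counts in combination libraries, 2, 5 and 7 in IFNγ libraries, 6, 10 and 7 in irradiated libraries, and 3, 3 and 3 in untreated libraries. The mean levels were 1.02 ± 0.394 CPM with both treatments, 0.456 ± 0.252 with IFNγ, 0.763 ± 0.212 with radiation and 0.289 ± 0.013 in untreated cells (SD, n = 3 each). Every combination and every irradiated library was above every untreated one, while IFNγ and untreated libraries overlapped.

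KYNU failed the filter on low counts and so was compared by summed level, with an exact two-sided permutation test over libraries whose smallest possible p is 0.1 at 3 against 3. The ratio to untreated cells was 3.5 in combination cells (95% counting interval 1.63 to 8.33; exact permutation p = 0.1), 1.57 in IFNγ cells (0.634 to 4.12; exact permutation p = 0.4) and 2.64 in irradiated cells (1.18 to 6.48; exact permutation p = 0.1). Without irradiated replicate 2, the last ratio was 2.23 (0.88 to 5.9). Combination cells held 2.22 times as much KYNU as IFNγ cells (1.15 to 4.51; exact permutation p = 0.1) and 1.33 times as much as irradiated cells (0.752 to 2.37; exact permutation p = 0.5), or 1.57 (0.802 to 3.26) without irradiated replicate 2.

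In an edgeR fit with no filter on low counts, over 17361 genes, KYNU was called in combination against untreated cells (adjusted p = 0.0034) and in irradiated against untreated cells (0.049), but not in combination against IFNγ cells (0.054) or in IFNγ against untreated cells (0.57). That fit was not repeated without irradiated replicate 2. The highest KYNU level in any library was 1.47 CPM, in combination replicate 1. For comparison, AFMID, a gene of the same pathway, averaged 14.3 CPM in untreated cells.

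Around IDO1 and KYNU, few enzymes of the kynurenine pathway were measurable. Of 12 listed genes, 5 could be tested: IDO1, AFMID (kynurenine formamidase, the second step) and the aminotransferases KYAT1, KYAT3 and AADAT, which turn kynurenine into kynurenic acid. IDO1 alone was called higher in IFNγ cells and none of the 5 was called lower, beside 15% and 14.1% of all genes. In irradiated cells none was called higher and 3 of the 5 were called lower, beside 28.2% of all genes. Their log2 fold changes were -0.66 ± 0.118 for AADAT (8.66 CPM in irradiated cells, 13.7 in untreated cells), -0.44 ± 0.145 for KYAT1 and -0.26 ± 0.1 for KYAT3 (SE; edgeR adjusted p = 2.5e-06, 0.0082 and 0.025). The KYAT1 and KYAT3 calls were lost in DESeq2 and without irradiated replicate 3, so AADAT was the aminotransferase whose fall held in all 12 alternatives run.

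With both treatments, IDO1 was called higher and AADAT and KYAT1 lower than in untreated cells, beside 30.9% and 31.2% of all genes. AADAT fell by 0.71 (log2, SE 0.116; edgeR adjusted p = 4.2e-07) in combination cells against IFNγ cells, and KYAT1 by 0.42 (SE 0.147; edgeR adjusted p = 0.011), a call that DESeq2 did not make. Of all genes, 30.4% were called lower in combination than in IFNγ cells. In combination against irradiated cells IDO1 alone of the 5 was called, beside 26.9% of all genes called either way. AFMID had a log2 fold change of -0.08 in IFNγ cells and 0.02 in irradiated cells and was called in none of the 6 contrasts (edgeR adjusted p = 0.39 to 0.99).

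The other starting enzymes and the steps beside KYNU were at a few counts a library. IDO2, a relative of IDO1, had 0 to 2 counts in each library. TDO2, the tryptophan dioxygenase best known in liver, had 1 to 7. KMO, which makes the 3-hydroxykynurenine that KYNU cleaves, had 0 to 2, and HAAO, the next enzyme after KYNU, had 0 counts in all treated libraries and 1, 1 and 0 in untreated ones. QPRT, which carries the pathway on toward NAD, had 0 to 5 and ACMSD, which diverts it, 0 to 9. Per kilobase of annotated exon, IDO1 reached 55.6 CPM in IFNγ cells, against 3.34 for AFMID, 8.77 for KYAT3, 4.72 for AADAT, 0.0167 for KMO and 0.0259 for KYNU in the same cells.

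**Figure D3:**
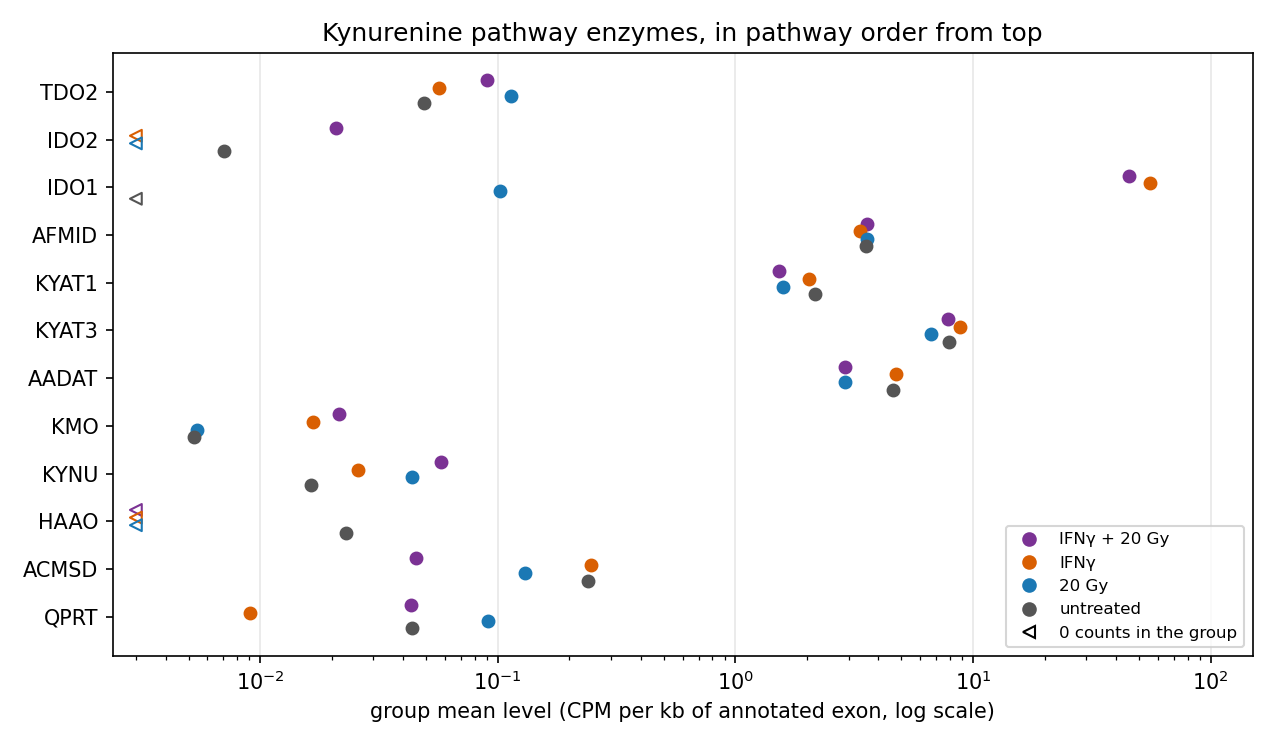
Group mean levels of the kynurenine pathway enzymes in CPM per kilobase of annotated exon (horizontal log axis), in pathway order from the top, with 1 point per treatment group and open triangles for groups with 0 counts. IDO1 reached 55.6 in IFNγ cells, while KMO, KYNU and HAAO stayed near or under 0.1 in every group.

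Among other enzymes that use tryptophan or its products, 3 of 8 listed genes could be tested. MAOA, a monoamine oxidase, fell in IFNγ cells (log2 fold change -0.49 ± 0.164, SE; edgeR adjusted p = 0.019) and rose in irradiated cells (0.41 ± 0.143; edgeR adjusted p = 0.012). The first call was lost in 4 of 12 alternatives and the second in 2 of 12, DESeq2 among them in both cases. IL4I1, a secreted amino acid oxidase that also degrades tryptophan, was too low to test, with 7, 12 and 16 counts in combination libraries, 1, 4 and 0 in IFNγ libraries, 4, 5 and 4 in irradiated libraries and 1, 2 and 2 in untreated libraries. All 3 combination libraries of IL4I1 were above all others.

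WARS is 1 of 20 genes listed for the cytosolic aminoacyl-tRNA synthetases, the enzymes that load each amino acid onto its tRNA, and all 20 could be tested. In IFNγ cells 6 of the 20 were called higher and none lower, beside 15% and 14.1% of all genes. WARS led with 4.76, and the next were KARS (lysine) at 0.29 ± 0.0307, CARS (cysteine) at 0.27 ± 0.0431 and DARS (aspartate) at 0.25 ± 0.037 (log2 fold change, SE). The calls of RARS and LARS (0.11 and 0.10) were lost when library totals replaced TMM, and 5 synthetases were then called lower. Without WARS the median change of the list was -0.0023, against -0.0052 over all tested genes.

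Radiation went the other way for most synthetases. In irradiated cells 16 of the 20 were called lower and 2 higher, beside 28.2% and 27.9% of all genes, and the median log2 fold change was -0.28 against 0.0061 over all genes. The largest falls were in YARS (tyrosine, -0.81), GARS (glycine, -0.80), AARS (alanine, -0.71) and MARS (methionine, -0.68), while QARS (glutamine, 0.36) and HARS (histidine, 0.22) rose. WARS, at -0.23, and LARS (leucine), at -0.02, were not called. Among the 16, RARS (-0.09), lost its call in 5 of 12 alternatives.

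With both treatments 14 of the 20 synthetases were called lower and 3 higher than in untreated cells, beside 31.2% and 30.9% of all genes. The 3 were WARS, QARS and HARS, and the call of LARS among the 14 was lost in 7 of 12 alternatives. Against IFNγ cells, combination cells had 18 called lower, WARS among them, and 2 called higher, QARS and HARS, with a median of -0.29. Of all genes, 30.4% were called lower there and 30.3% higher. Against irradiated cells, combination cells had 4 called higher, namely WARS, KARS (0.27), DARS (0.22) and CARS (0.21), and 7 called lower. Beside these stood 14.5% of all genes called higher and 12.4% called lower. That count of 7 fell to 3 without combination replicate 2 and to 4 without combination replicate 3.

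Per kilobase of annotated exon, WARS had the highest level of the 20 synthetases in cells given IFNγ and one of the lowest in cells without it. It stood at 585 CPM per kilobase in combination cells, rank 1, where KARS was next at 90.5, and at 685 in IFNγ cells, also rank 1, with KARS at 106. In irradiated cells it was at 21.6, rank 17, and in untreated cells at 25.3, rank 18, under a median of 47.7 for the other 19. The ranks without IFNγ depend on the lengths, which join all annotated exons of a gene. By CPM alone WARS ranked higher in those cells. Of all counts in the 20 genes, WARS held 48.1% ± 1.7 in combination cells, 45.5% ± 1.89 in IFNγ cells, 3.25% ± 0.33 in irradiated cells and 3.1% ± 0.052 in untreated cells (SD, n = 3 each). The other 19 summed to 4015 ± 66.9 CPM in combination cells, 5209 ± 14.9 in IFNγ cells, 4087 ± 28.7 in irradiated cells and 5036 ± 25.5 in untreated cells, so every mean with radiation was below every mean without it. LARS was the 1 synthetase with a called interaction (-0.16 on the log2 scale), beside 2.38% of all genes. That call was lost in 12 of 17 alternatives.

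**Figure D4:**
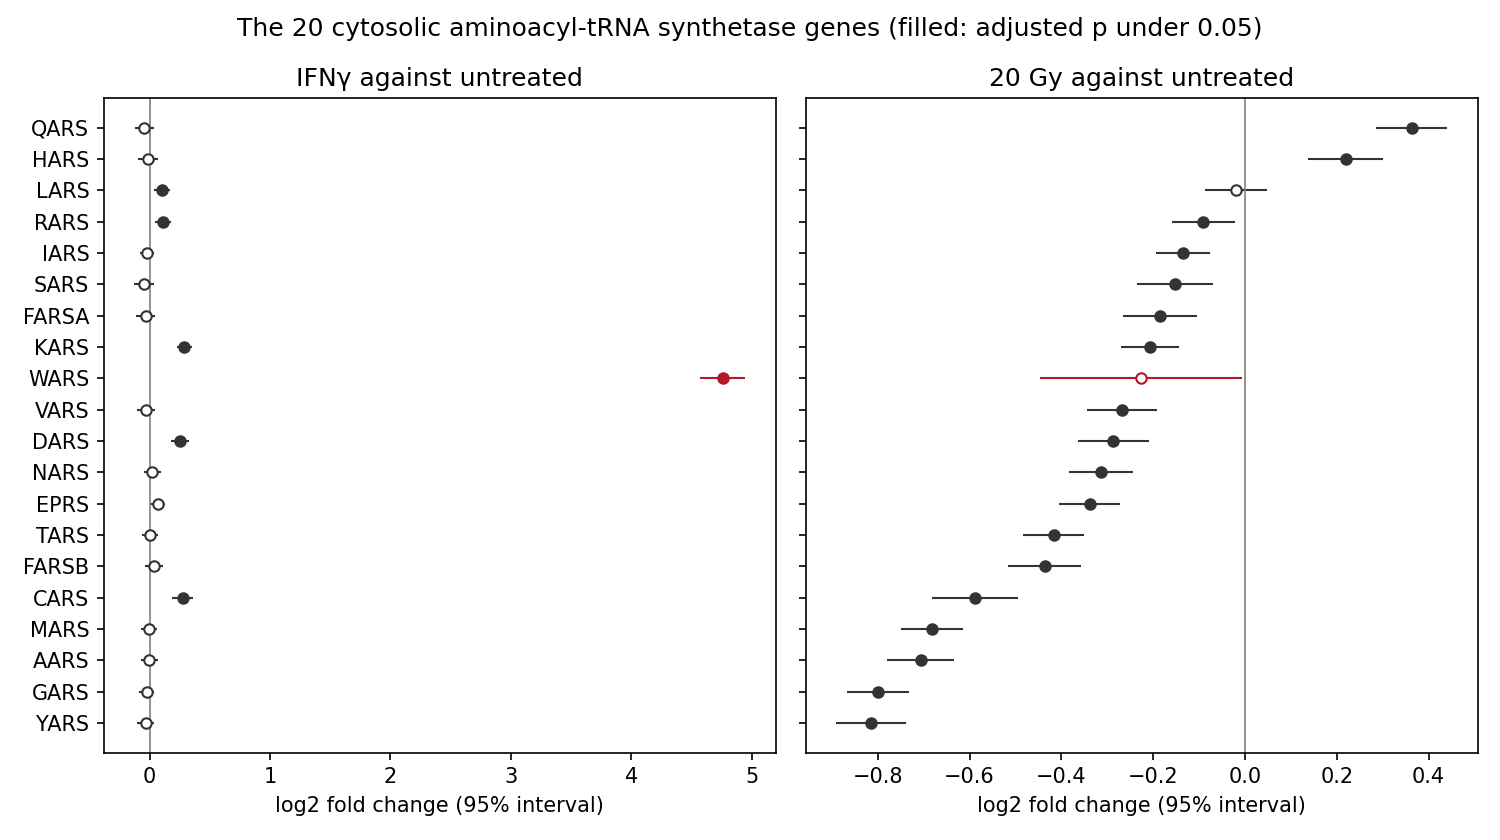
Log2 fold change with its 95% interval (horizontal axis) of the 20 cytosolic synthetase genes (rows) in IFNγ against untreated cells and in irradiated against untreated cells, with filled points where the adjusted p was under 0.05. WARS stands at 4.76 with IFNγ and every other gene at 0.29 or under, whereas 16 genes lie below 0 and are called with radiation.

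The mitochondrial counterparts were described in the same way. WARS2, which loads tryptophan in mitochondria, had a level of 17.5 CPM in untreated cells and was called in no comparison, with log2 fold changes of 0.02 in combination cells, 0.21 in IFNγ cells and 0.08 in irradiated cells against untreated cells (edgeR adjusted p = 0.83, 0.061 and 0.49). Of the 16 mitochondrial synthetases listed, 2 were called higher and none lower in IFNγ cells, led by LARS2 at 0.44, beside 15% and 14.1% of all genes. The other, EARS2 (0.23), lost its call in 3 of 12 alternatives. In irradiated cells 2 were called higher and 6 lower, beside 27.9% and 28.2% of all genes, with NARS2 at -0.87 the largest fall.

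The promoter motifs were also counted over the synthetases. Of the 20 cytosolic synthetase genes, 16 had a window in the promoter table, with 21 windows in all. An ISRE core match was found in 1 of the 16 genes, WARS, a GAS match in 2, WARS and TARS, and a match to TGATGNAA, a form of the site bound by ATF4, in 3, AARS, GARS and IARS. Over all windows the ATF4 form was in 3.14%, and WARS had none.

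ATF4 is the transcription factor that cells raise when an amino acid runs short and the kinase GCN2 (EIF2AK4) senses uncharged tRNA. Of 9 genes listed for this response, 2 were called higher and none lower in IFNγ cells, namely ASNS, the asparagine synthetase (0.25 ± 0.0443), and TRIB3 (0.16 ± 0.0552; log2 fold change, SE), beside 15% and 14.1% of all genes. The TRIB3 call was lost in 5 of 12 alternatives, DESeq2 and library totals among them. ATF4 RNA itself was not called there, with 414, 425 and 399 CPM in IFNγ libraries, against 420, 422 and 414 CPM in untreated libraries. In irradiated cells 6 of the 9 were called lower and 2 higher, beside 28.2% and 27.9% of all genes. ATF4 stood at 175, 178 and 181 CPM in irradiated libraries, a log2 fold change of -1.23 ± 0.0336. CHAC1 (-3.58), ASNS (-2.13) and TRIB3 (-1.15) of the same list fell too. SESN2, a stress-induced inhibitor of mTORC1 signalling (0.53), and EIF2AK4 (0.09) were called higher, the EIF2AK4 call being lost in 6 of 12 alternatives. ASNS also had a called interaction (-0.35 ± 0.0901, SE; edgeR adjusted p = 0.0195), which 4 of 17 alternatives lost, DESeq2 among them.

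Of the 11 genes listed for transport of tryptophan and like amino acids, 9 could be tested. SLC7A5 and SLC3A2 encode the light and heavy chains of LAT1, the main carrier of tryptophan in many cultured cells. SLC7A5 had 135, 150.5 and 146 CPM in combination libraries, 450.1, 468 and 459 in IFNγ libraries, 149, 142 and 141 in irradiated libraries and 521, 484 and 489 in untreated libraries. Its log2 fold change was -1.79 ± 0.037 in combination cells, -0.12 ± 0.0331 in IFNγ cells and -1.79 ± 0.0372 in irradiated cells, each against untreated cells and each called (edgeR adjusted p = 1.8e-43, 0.0046 and 7.1e-43). SLC3A2 had a log2 fold change of -1.49 in combination cells, -0.12 in IFNγ cells and -1.28 in irradiated cells, all called, but the IFNγ call was lost in 4 of 12 alternatives, DESeq2 among them.

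The list as a whole had 4 genes called lower and none higher in IFNγ cells, 4 lower and 1 higher in irradiated cells and 7 lower and 2 higher in combination cells, each against untreated cells. Of all genes, 14.1% were called lower in IFNγ cells, 28.2% in irradiated cells and 31.2% in combination cells. The shares called higher were 15%, 27.9% and 30.9%. Among the 4 in IFNγ cells, SLC43A1 (-0.34) lost its call in 5 of 12 alternatives. SLC7A11, the cystine carrier that shares the SLC3A2 chain, had log2 fold changes of -2.94 in combination cells, -0.46 in IFNγ cells and -1.68 in irradiated cells, each called. It was the 1 gene of the list with a called interaction (-0.79 ± 0.115, SE; edgeR adjusted p = 2.3e-05), beside 2.38% of all genes. SLC36A4, a high-affinity tryptophan transporter, fell in combination cells (-0.37 ± 0.084, SE; edgeR adjusted p = 0.00012) and was not called in IFNγ cells (-0.14) or in irradiated cells (-0.04).

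Kynurenine is a ligand of the aryl hydrocarbon receptor, so the receptor and its usual targets were followed too, 7 of 9 being testable. AHR itself stood at 79.9 ± 1.29 CPM in combination cells, 60.7 ± 9.07 in IFNγ cells, 85.9 ± 4.99 in irradiated cells and 61.8 ± 5.38 in untreated cells (SD, n = 3 each). It was called higher in irradiated cells (0.47 ± 0.0813) and combination cells (0.37 ± 0.0816) and not called in IFNγ cells (-0.03 ± 0.0855; log2, SE). CYP1A1, the classic target of the receptor, had 21, 17 and 11 counts in combination libraries, 11, 6 and 8 in IFNγ libraries, 32, 27 and 25 in irradiated libraries and 5, 9 and 5 in untreated libraries. Its log2 fold change was 2.17 ± 0.38 in irradiated cells and 1.33 ± 0.403 in combination cells, both called, and 0.41 ± 0.452 in IFNγ cells, not called. In IFNγ cells 1 of the 7 genes was called, AHRR, the receptor's repressor, which fell by 0.73, beside 29.1% of all genes called either way.

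Of 9 genes listed for NAD synthesis, the end of the branch on which KYNU acts, 6 could be tested. NAMPT, the rate-limiting enzyme of NAD salvage from nicotinamide, was the 1 gene called in IFNγ cells, beside 29.1% of all genes called either way. It stood at 219 ± 6.73 CPM in IFNγ cells against 150 ± 6.08 CPM in untreated cells (SD, n = 3 each; log2 fold change 0.55 ± 0.038, SE). In irradiated cells 4 were called higher, among them NADSYN1 (1.11), NMNAT1 (0.89) and NMRK1 (0.71), and NAMPT was called lower (-0.14), beside 27.9% and 28.2% of all genes. In combination cells 5 of the 6 were called higher than in untreated cells, beside 30.9% of all genes. NMNAT2 among the 4 (0.33) and NAPRT among the 5 (0.46) each lost the call in 5 of 12 alternatives.

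The signalling genes between IFNγ and IDO1 and WARS responded as follows. IRF1 had log2 fold changes of 4.68 ± 0.244 in combination cells, 4.81 ± 0.244 in IFNγ cells and 0.34 ± 0.316 in irradiated cells against untreated cells (SE), the last not called. IRF9, the DNA-binding subunit of the complex ISGF3, stood at 49.8, 53.2 and 58.1 CPM in combination libraries, 65.2, 59.8 and 63.0 in IFNγ libraries, 12.3, 12.5 and 12.2 in irradiated libraries and 7.69, 7.15 and 8.32 in untreated libraries. All combination libraries of IRF9 were below all IFNγ libraries, and the log2 fold change between them was -0.22 ± 0.0568 (SE; edgeR adjusted p = 0.00072). In the same comparison STAT2, a partner of IRF9 in that complex, was called higher (0.55 ± 0.0494), WARS was called lower, and IDO1 and IRF1 were not called.

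Of the 15 signalling genes listed, 13 could be tested. In IFNγ cells 8 were called higher, led by IRF1, IRF9 (3.02), STAT2 (2.49) and SOCS1 (2.18), a feedback inhibitor of the pathway, and 2 lower, PTPN11 (-0.24) and BIN1 (-0.16), a gene linked in mouse to control of IDO1, beside 15% and 14.1% of all genes. The BIN1 call was lost in 6 of 12 alternatives, DESeq2 among them. In irradiated cells 3 were called higher, STAT2 (0.80), IRF9 (0.67) and JAK1 (0.27), and 2 lower, PTPN2 (-0.43) and PTPN11 (-0.14), no larger a share than the 27.9% and 28.2% of all genes. In combination against untreated cells 9 were called higher and 2 lower, beside 30.9% and 31.2%, and of these the PTPN2 call was lost in 4 of 12 alternatives. The interaction was called in 2 of the 13, both negative: IRF9 (-0.89 ± 0.133) and SOCS3 (-0.46 ± 0.119; log2, SE). Of 17 alternatives, 8 lost the SOCS3 call, and over all tested genes 2.38% had a called interaction.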

How the data were processed

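The deposited table holds raw counts per gene that the authors made from 12 libraries. Per the labels' protocols, ribosomal RNA was removed and stranded total RNA libraries were sequenced for 50 cycles, paired end, whereas the series' design text names an mRNA protocol. The submitters' processing notes name build hg19 (GRCh37) and the tools TopHat2 2.0.13, Cuffdiff 2.2.1, Cufflinks and FastQC 0.11.3. Neither the program that counted reads nor its use of strand nor its annotation is stated in the sources used here, so reads of overlapping genes cannot be told apart. The table has 27 symbols turned into dates, none among the genes named.

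From the deposited counts, edgeR 4.0.16 (R 4.3.3) was run with filterByExpr, TMM and a robust quasi-likelihood fit of 4 group means over all 12 libraries, giving 6 contrasts with p-values adjusted over 12160 genes; intervals are at 95%. Genes not tested hold 0.0678% of counts. CPM were computed from the counts. CPM per kilobase used GENCODE 29 lengths, which join all annotated exons of a gene, matched by gene ID and on another build. DESeq2 1.42.0, other scalings, no filter, fits of the compared groups alone, a replicate block and leaving out each library were the alternatives. The fit was tested on simulated data. The members and lists were chosen with earlier results of these data known. Text names the members, up to 4 called genes in each direction per list and contrast, a few genes chosen for their role, and the 5 genes most like each member; GBP5, IL4I1, SLC36A4 and the immune markers of irradiated replicate 2 were named after their values were seen. Libraries of a group differed by 1.13 to 2.67 times the variance of counting (chi-square per degree of freedom over 12 pairs). No library's counts were thus a copy of another's in its group, but technical repeats cannot be told from separate cultures this way. Some listed genes are not reported here.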

Additional observations from a re-analysis of the deposited data

Results flagged for a closer look

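Neither IDO1 nor WARS had a called interaction, the test of whether the IFNγ effect differed between irradiated and unirradiated cells. Among the 131 genes of the lists, members included and not all tested, 6 did, 5 negative and 1 positive. Over all tested genes the share was 2.38%, with 1.38% positive and 0.995% negative. SLC7A11, which shares the heavy chain of the tryptophan carrier, had an interaction of -0.79 on the log2 scale, since IFNγ changed it by -1.26 in irradiated cells and by -0.46 in unirradiated cells. IRF9 had -0.89, with IFNγ changes of 2.13 in irradiated cells and 3.02 in unirradiated cells. Both calls were kept in all 17 alternatives run.

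ASNS had -0.35 and lost the call in 4 of 17 alternatives. SOCS3 had -0.46 and lost it in 8. LARS, the leucine synthetase, had -0.16 and lost it in 12 of 17, DESeq2 among them. The positive interaction was in FN1, the fibronectin gene on the list of mesenchymal markers, at 0.31, with IFNγ changes of -0.17 in irradiated cells and -0.47 in unirradiated cells, and was kept in all 17.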

How the results depend on the processing

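No called value of IDO1, WARS or KYNU changed sign under the alternatives that gave one. The uncalled interactions lay on both sides of 0, between -0.055 and 0.093 for WARS and between -0.60 and 0.19 for KYNU. Of 75 such values for IDO1, 74 kept their side of the threshold, as did 71 of 77 for WARS. KYNU had no adjusted p in the main fit, nor with DESeq2, library totals or the compared groups alone. Its 65 of 77 values counted as unchanged thus include those with no test on either side and do not show stability. The other 12 were called in the alternative, where the main fit had no test. With DESeq2, IDO1 in irradiated against untreated cells (log2 ratio to the floor 1.79) and WARS there (-0.22) were called. Over all genes DESeq2 called 82 positive and 74 negative interactions, against 168 and 121. Library totals in place of TMM gave 2717 genes lower in IFNγ than in untreated cells (1715 with TMM) and 2278 lower in combination than in irradiated cells (1509). With no filter, KYNU was called in irradiated (1.39) and combination (1.81) against untreated cells. Fits of the compared groups alone called WARS in irradiated against untreated cells (-0.22) and lost it in combination against IFNγ cells (-0.22). Leaving out 1 library gave WARS -0.32 to -0.17 in irradiated against untreated and -0.27 to -0.15 in combination against IFNγ cells. KYNU gave 1.15 to 1.54 in irradiated and 1.45 to 1.98 in combination against untreated cells, and 0.80 to 1.59 in combination against IFNγ cells. Interaction calls ran between 91 and 194 positive and between 70 and 138 negative. IDO1 in irradiated against untreated cells and its interaction had no value without irradiated replicate 2.

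Same-numbered libraries did not deviate together (correlations -0.071 to 0.054 over 18 pairs, against -0.10 to 0.095 over 36 different-numbered pairs). The numbers thus gave no sign of a pairing, though a shared origin of same-numbered libraries is not excluded. The replicate block left WARS called in combination against IFNγ cells (edgeR adjusted p = 0.046) and not called in irradiated against untreated cells (0.13). At these depths KYNU, KMO, HAAO and IDO2 rest on a few counts a library, so changes in them were barely detectable.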
